A study of Mus musculus with 44 samples.

Results

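Livers of 26-month-old mice after long-term cyclic ketogenic diet (KD) were compared with livers of mice kept on control diet (CD), across the gene families of liver metabolism and secretion. Of the 44 RNA libraries of the study, the 16 labelled as liver at 26 months were used, 8 KD and 8 CD, chosen by their labels alone. All were male C57BL/6 mice whose diets began in middle age. The KD mice were fed KD and CD in alternate weeks, and the CD mice were fed CD throughout. KD held almost no carbohydrate and CD was rich in it, and both diets were low in protein. All livers were taken at night, in a week in which both groups ate CD. The comparison therefore concerns what long cycling left in the liver between bouts of KD, and not the response to KD itself.

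When carbohydrate is scarce, hepatocytes oxidize fatty acids and release ketone bodies, a program driven largely by the nuclear receptor PPAR-alpha. When carbohydrate returns, insulin, SREBP-1c and ChREBP drive glycolysis and fat synthesis, and SREBP-2 controls cholesterol synthesis. Hepatocytes also secrete most plasma proteins, among them albumin, apolipoproteins, clotting factors, complement and acute phase proteins, through the endoplasmic reticulum and Golgi.

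The labelled tissue was checked against 20 defining hepatocyte genes, and all 20 were among the genes tested. Their summed level was 31523 to 56043 CPM in KD livers, against 17861 to 55746 CPM in CD livers. CPM are counts scaled to library size, here with TMM factors, and are not divided by gene length, so levels are compared between livers and not between genes. Albumin (Alb) alone had 13824, 16479 and 20907 CPM in KD livers, against 7920.3, 13498 and 18918 CPM in CD livers (lowest, median and highest of the 8 livers, the order used for every gene below). No defining gene was at 0 in all livers, and the lowest sums were those of 4 CD livers.

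Library totals were 6879726 to 11786410 counts in KD livers, against 8090281 to 12682087 counts in CD livers, with medians of 9011340 and 11432014.5. Some libraries stood apart from the rest. Transcripts of the predicted gene Gm10800 made up 1.23 to 2.39% of the counts in 5 KD livers (replicates 10, 11, 14, 15 and 16) and 1.61% in 1 CD liver (replicate 1), against at most 0.0058% in the other 10. In the livers high in Gm10800, 42868 to 47702 genes had a count, against 25030 to 28259 in the other 10. Mitochondrially encoded transcripts made up 1.68 to 1.91% of the counts in CD replicates 3, 5, 6 and 7, against 2.61 to 4.12% in the other 12 livers. In the same 4 CD livers the 10 most abundant genes held 6.10 to 7.15% of the counts, against 8.35 to 11.9% in the other 12. These 4 livers were singled out after values had been seen, so what is said of them below is description. Beside each metabolic or secretory list whose count above 0 is given, that count or the median is also given without them, as are many of the single genes. The labels name no cage, day or batch for these livers. In bulk tissue, fewer cells of a type and less RNA per cell cannot be told apart.

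With edgeR's quasi-likelihood test and Benjamini-Hochberg adjustment over 18002 genes, no gene passed an adjusted p of 0.05 in either direction (0% higher and 0% lower in KD livers). The lowest adjusted p was 0.257, that of Cela1, an elastase gene. limma called none either, with 1879 genes at an unadjusted p under 0.05. Before adjustment, edgeR gave a p under 0.05 to 1268 genes that were higher in KD livers (7.04%) and to 1524 that were lower (8.47%). The common biological coefficient of variation was 0.453. Counts were simulated at the depth of these livers, with 1 spread per gene shared by both diets and each gene drawn independently. There the test recovered 39 of 100 genes set 1 log2 unit apart and 76 of 100 set 2 log2 units apart. In the real livers the SD of log2 CPM was larger among CD livers for 76.4% of genes, so recovery in these data may differ. The 95% interval of a gene's log2 fold change (KD minus CD, positive where KD is higher) reached 0.49 to either side in the median over all genes tested.

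Other tools and livers gave other counts. DESeq2, run on the same genes, called 86 higher (0.478%) and 91 lower (0.505%). In the simulation it recovered 57 and 87 of the 2 sets of 100 changed genes, with 46 false calls, against 3 by edgeR. Those false calls were counted with equal spread in both diets, so they do not give the rate in these data. With CD replicate 1 left out, edgeR called 103 higher (0.567%) and 14 lower (0.077%). CD replicate 1 was the only CD liver high in Gm10800, so that fit set 5 such KD livers against no such CD liver. Without all livers high in Gm10800, which left 3 KD and 7 CD livers, edgeR called no gene. The part of this library feature in the 103 and 14 calls was not tested. With CD replicate 4 left out edgeR called Cela1 alone, as lower. A fit of all 44 libraries, the brains of the study included, called 17.3% of 26232 genes higher and 15.2% lower. That fit estimates 1 spread per gene from all 44 libraries together, whereas the fits above estimate it from the livers alone.

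Counted with no model, every KD liver was above every CD liver for 4 genes (0.0222% of those tested) and below every CD liver for 8 (0.0444%). The 4 were Serinc2, Rasgrp3 and the predicted genes Gm49265 and Gm23119. The 8 were Gba2, Cmas, Phrf1, Vps26b, Cela1, 0610012G03Rik, Riok3 and Prdx5. The last of them, Prdx5, a mitochondrial and peroxisomal peroxiredoxin, had 25.1, 45.1 and 50.47 CPM in KD livers, against 51.2, 54.2 and 85.7 CPM in CD livers, a log2 fold change of -0.53 (SE 0.15). Gba2, a non-lysosomal glucosylceramidase, had 14.7, 18.9 and 21.55 CPM in KD livers, against 22.2, 23.4 and 27.3 CPM in CD livers, a log2 fold change of -0.37 (SE 0.08). Cmas, which activates sialic acid for glycoproteins, had 42.1, 48.3 and 51.4 CPM in KD livers, against 51.6, 59.97 and 72.2 CPM in CD livers, a log2 fold change of -0.34 (SE 0.08). Serinc2, a membrane protein of the serine incorporator family, had 12.6, 15.7 and 19.03 CPM in KD livers, against 2.75, 8.91 and 12.01 CPM in CD livers, and its log2 fold change was 0.94 (SE 0.26). Each adjusted p was 0.291. For these genes the diets did not overlap, but the nearest KD and CD livers were close, and the log2 fold changes were under 1 in size. Without CD replicates 3, 5, 6 and 7 the log2 fold changes were -0.45 for Prdx5, -0.39 for Gba2, -0.25 for Cmas and 0.48 for Serinc2.

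The metabolic and secretory families were covered by 29 lists with 960 distinct genes in the table. Of these, 921 passed the filter on low counts and were tested, and 39 did not pass. None of the 921 was called by edgeR, and none separated the diets without overlap. At an unadjusted p under 0.05 in edgeR, 21 were higher in KD livers (2.28%) and 48 lower (5.21%), both below the shares of all genes. Of the 5867 genes with a mean log2 CPM above 5, 76 were higher and 842 lower. Against those genes, which were not matched to the members by level, the members had a larger share higher and a smaller share lower. A log2 fold change above 0 was seen for 682 of the 921 members (74.0%), against 55.8% of all genes and 48.1% of those 5867 genes. The members had a median of 0.18, against 0.04 over all genes, and the median half-width of their intervals was 0.67. The median was above 0 in 24 of the 29 lists, and in 1 list, cholesterol synthesis, it was above 0.5.

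Most members were more spread among CD livers than among KD livers, as were most genes tested. The SD of log2 CPM was larger among CD livers for 792 of the 921 members (86.0%), against 76.4% of all genes and 83.2% of those with a mean log2 CPM above 5. Its median over members was 0.40 in KD livers and 0.83 in CD livers. Over all genes it was 0.34 and 0.53, and over genes with a mean log2 CPM above 5 it was 0.22 and 0.41. All 8 KD livers lay within the range of the CD livers for 500 members (54.3%, against 38.8% of all genes and 45.4% of those above 5). The opposite nesting, all CD livers within the KD range, held for 58 members (6.30%, against 9.14% and 7.02%). The median SD was larger in CD livers in all 29 lists, as the plot of spread by list shows. The level of a list, its mean over members, had the larger SD in CD livers in 25 of the 29. The other 4 were acute phase proteins, complement, glycolysis and sterol export.

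**Figure D1:**
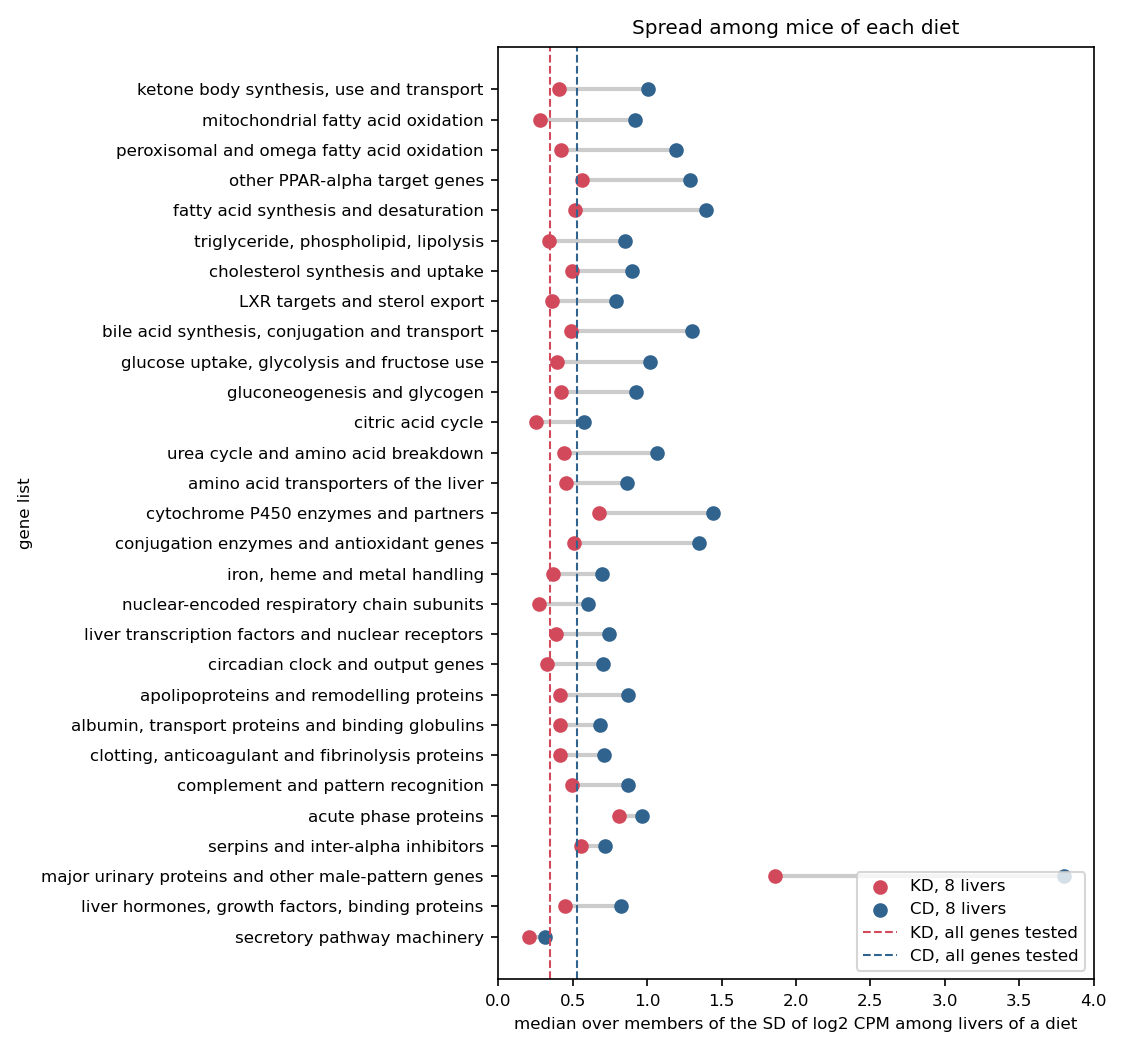
Median over the tested members of each list of the SD of log2 CPM among the 8 KD livers and among the 8 CD livers, on a linear axis. Dashed lines give the same median over all 18002 genes tested, 0.34 for KD and 0.53 for CD, and in every list the KD point lies left of the CD point.

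Within the CD range the livers fell into 2 sets. The 20 defining hepatocyte genes summed to 17861 to 27877 CPM in CD replicates 3, 5, 6 and 7 and to 47683 to 55746 CPM in CD replicates 1, 2, 4 and 8. Among KD livers replicates 9, 10 and 12 were the lowest, at 38096, 31523 and 37013 CPM, and the other 5 had 44632 CPM or more. In 15 of the 29 lists these 4 CD livers were the lowest of all 16, and for 343 of the 921 members (37.2%) they held the 4 lowest values, against 14.6% of all genes and 22.3% of those with a mean log2 CPM above 5. For 11.8% of all genes they held the 4 highest values. Cyp2e1, the ethanol-oxidizing P450 of hepatocytes near the central vein, had 1909, 2835 and 4939.7 CPM in KD livers, against 26.51, 2481 and 5308 CPM in CD livers. Its 4 lowest values were 26.51, 167, 376 and 965 CPM in CD replicates 3, 6, 5 and 7.

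**Figure D2:**
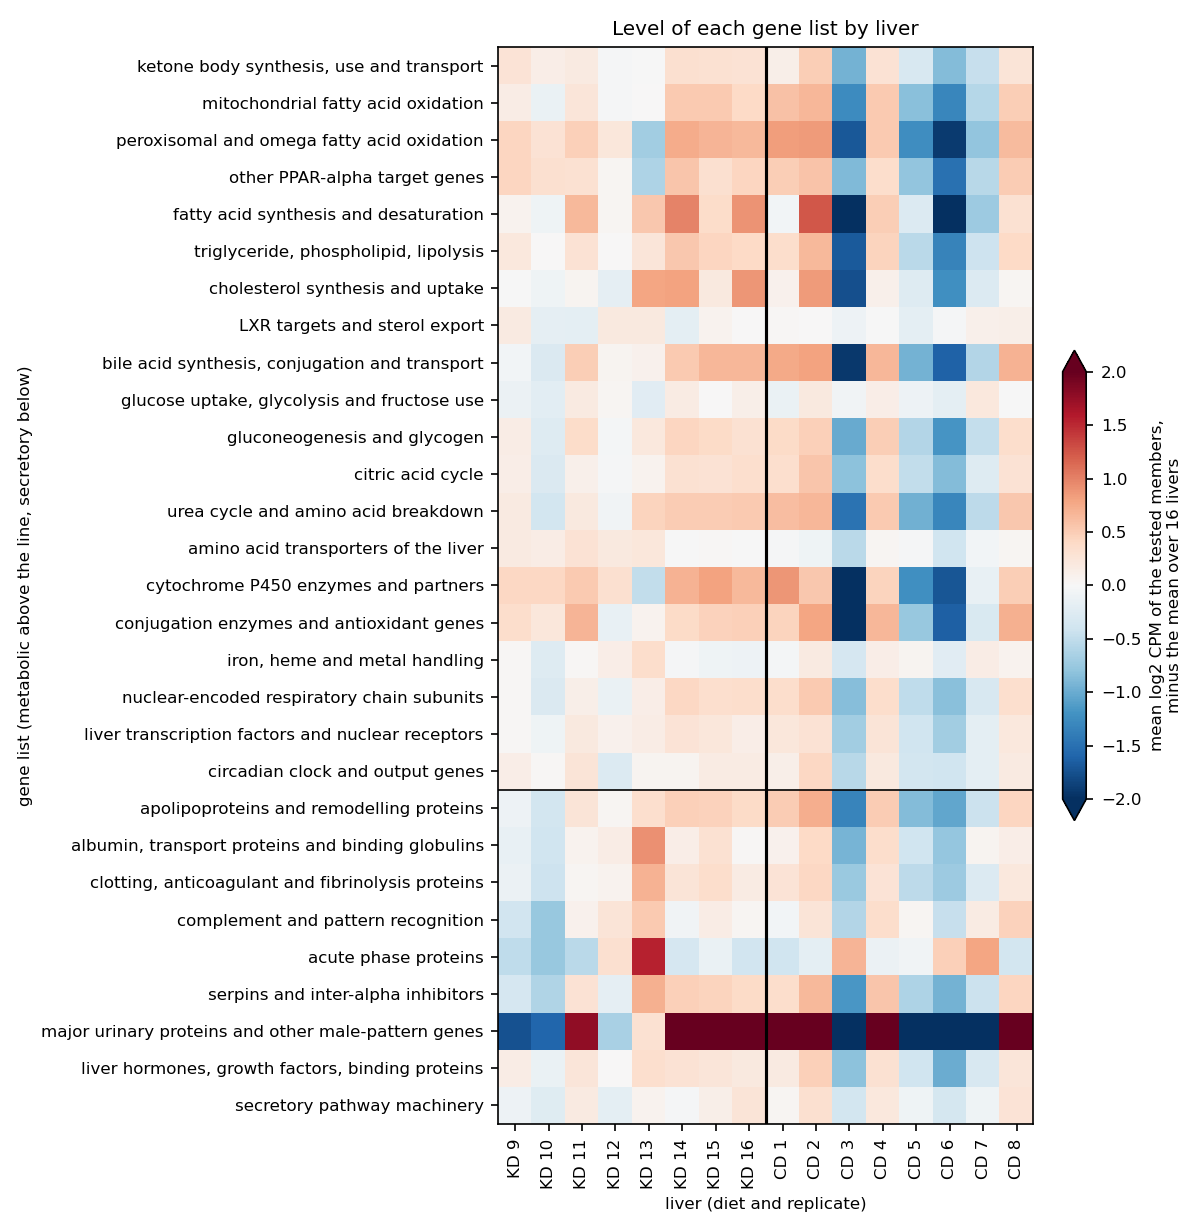
Level of each gene list in each liver, as the mean over tested members of log2 CPM minus the mean of the 16 livers. KD livers stand left of the vertical line and CD livers right of it, and colours are cut at -2 and 2. CD replicates 3, 5, 6 and 7 are blue in most lists, major urinary proteins are also blue in KD replicates 9, 10 and 12, and acute phase proteins are red in KD replicate 13.

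Markers of other cells moved with these sets. The summed level of 14 Kupffer cell genes was 542 to 3963 CPM in KD livers, against 7332 to 7884 CPM in CD replicates 3, 5, 6 and 7 and 579 to 1766 CPM in the other 4 CD livers. For 14 neutrophil genes, 9 of them tested, the sums were 31.02 to 783 CPM in KD livers, against 669 to 3370.4 and 31.7 to 64.2 CPM in the same sets of CD livers. For 19 genes of dividing cells they were 85.97 to 351, against 454 to 715 and 79.8 to 117 CPM, and for 7 red blood cell genes 197 to 517, against 638 to 1083 and 284 to 491 CPM. None of the tested genes of these 4 lists had a log2 fold change above 0, and 12 of the 14 Kupffer cell genes and 8 of the 9 neutrophil genes had an unadjusted p under 0.05. Over all genes 8.47% were lower at that p in edgeR. DESeq2 called 5 of the neutrophil genes and 1 of the Kupffer cell genes lower, against 0.505% of all genes. With the 4 CD livers left out all 14 Kupffer cell genes were above 0, and so were all 8 neutrophil genes tested in that fit. No gene of these lists was at 0 in all 16 livers. KD replicate 12 was the highest KD liver for Kupffer cell and dividing cell genes. The neutrophil sum was highest among KD livers in replicate 13, where Lcn2, which hepatocytes also make in the acute phase, had 762 CPM. Without Lcn2, chosen after its values were seen, the neutrophil sums were 20.9 to 81.6 CPM in KD livers, with replicate 12 highest, against 205 to 2010.3 and 13.52 to 22.6 CPM in the same sets of CD livers. The part of these cells in the hepatocyte results was not tested.

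Left out together, CD replicates 3, 5, 6 and 7 turned the sign of 21 of the 29 list medians. In a fit of 8 KD and 4 CD livers no gene passed an adjusted p of 0.05, with a lowest value of 0.055, and 3393 of 21602 genes had an unadjusted p under 0.05. A log2 fold change above 0 was then seen for 195 of the 921 members (21.2%), against 9414 of the 17932 genes tested in both fits and 59.9% of all genes tested without them. The median of the members was -0.26, and 26 of the 29 lists had a median below 0. A larger SD among CD livers was seen for 107 members (11.6%) and for 26.8% of all genes. The livers were left out for what they express, so this fit describes how far the results rest on them and is no test of the diet. Without the 6 livers high in Gm10800, 564 of the 921 members were above 0, against 8337 of the 17852 genes tested in both fits. The share above 0 thus fell among all genes as well. In that fit 3 list medians changed sign, those of fat synthesis, sterol export and clock genes. Of the 43 members with an absolute log2 fold change above 1 in all 16 livers, 17 were higher in KD livers, and all 17 kept their sign without the 4 CD livers. Of the 26 that were lower, 1 did. That fit kept all 6 livers high in Gm10800, 5 of them KD, so it cannot show how far the 17 rest on that feature. How many of the 17 kept their sign without those 6 livers was not counted.

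**Figure D3:**
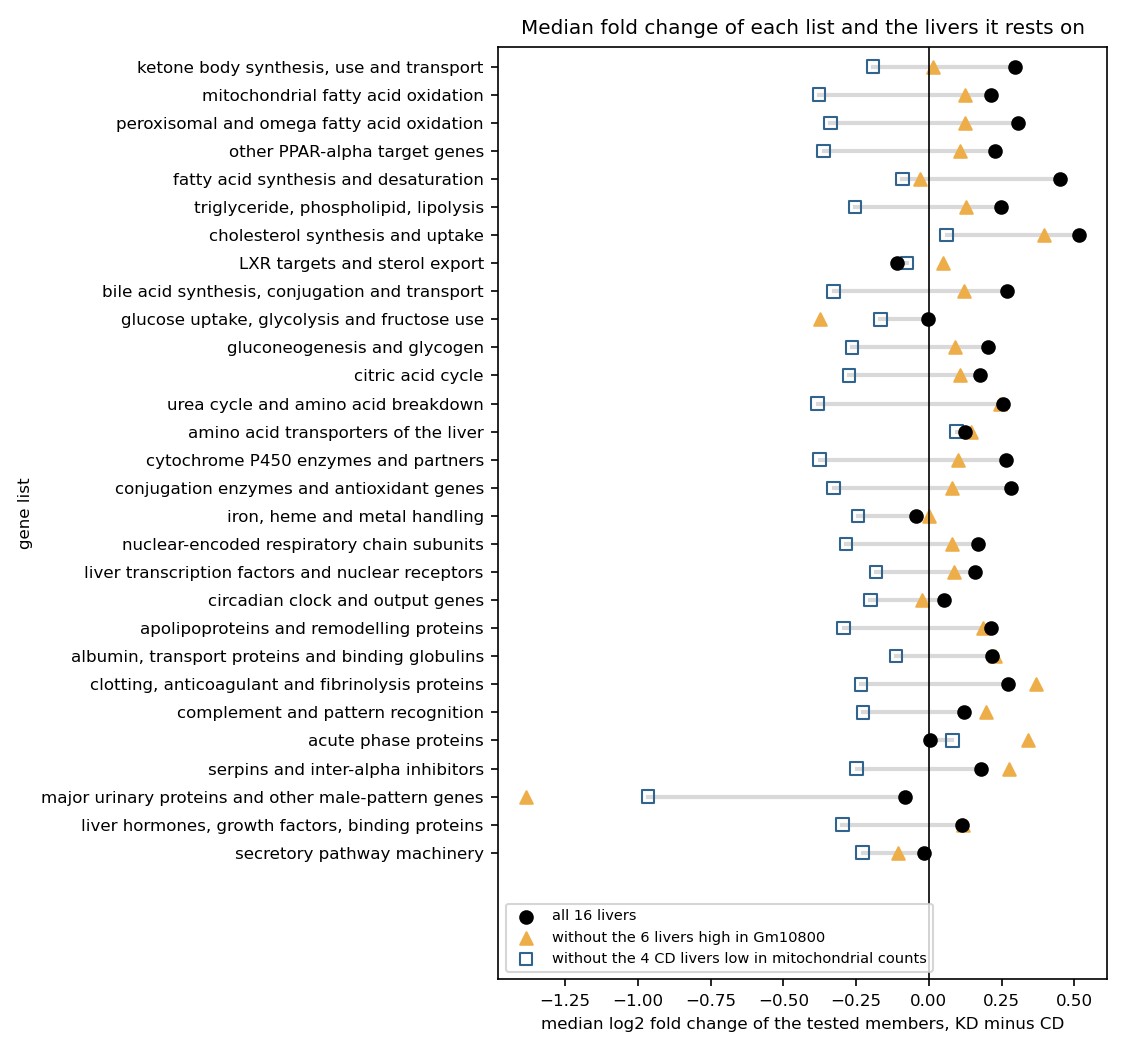
Median log2 fold change (KD minus CD) of the tested members of each list in all 16 livers (black circles), without the 6 livers high in Gm10800 (triangles) and without the 4 CD livers low in mitochondrial counts (open squares). Black circles lie above 0 in 24 lists and open squares in 3.

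No ketone body gene passed the test. Of 10 tested members, 8 had a log2 fold change above 0, with a median of 0.30 (-0.19 without the 4 CD livers). Slc16a1, the monocarboxylate carrier that lets ketone bodies and lactate cross the cell membrane, had 81.7, 117 and 141 CPM in KD livers, against 56.2, 94.4 and 113 CPM in CD livers, a log2 fold change of 0.46 (SE 0.17), an unadjusted p of 0.0136 and an adjusted p of 0.295 in edgeR. Oxct1, which other tissues use to burn ketone bodies and hepatocytes hardly express, had 8.98, 14.7 and 58.7 CPM in KD livers, against 8.30, 53.46 and 118 CPM in CD livers. Its highest values were those of CD replicates 3, 5, 6 and 7, and its highest KD livers were replicates 9, 10 and 12. Its log2 fold change of -1.16 became 0.999 without these 4 CD livers.

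Most fatty acid oxidation genes varied less among KD livers than among CD livers. All 24 tested genes of the mitochondrial pathway had a log2 fold change above 0, with a median of 0.21, none had an unadjusted p under 0.05, and without the 4 CD livers none of the 24 was above 0. Their median SD was 0.28 in KD livers and 0.91 in CD livers, against 0.22 and 0.41 over genes with a mean log2 CPM above 5. The SD was larger in CD livers for all 24, but for only 1 of the 24 without the 4 CD livers. Cpt1a, the gate of mitochondrial fatty acid import, had 210.1, 372 and 404 CPM in KD livers, against 202, 340.1 and 532 CPM in CD livers. Acsl1, which activates long-chain fatty acids, had 636, 883 and 2318 CPM in KD livers, against 121, 859 and 1682 CPM in CD livers. In the peroxisomal and omega pathway 21 of 25 genes were above 0, with a median of 0.31, against 4 of 25 and a median of -0.34 without the 4 CD livers. Its median SD was 0.42 in KD livers and 1.19 in CD livers. The SD was larger in CD livers for 22 of the 25 genes, and for 0 of 25 without the 4 CD livers. Ehhadh, the peroxisomal bifunctional enzyme, had 154, 285 and 339.5 CPM in KD livers, against 33.3, 154 and 306 CPM in CD livers, and its log2 fold change of 0.74 (SE 0.44) became -0.0012 without the 4 CD livers. Acox3, a peroxisomal oxidase, ran the other way with 41.97, 49.4 and 55.7 CPM in KD livers, against 45.99, 56.48 and 111 CPM in CD livers, a log2 fold change of -0.45 (SE 0.17).

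Among 23 other PPAR-alpha targets, 19 had a log2 fold change above 0, with a median of 0.23 (8 of 23 and a median of -0.36 without the 4 CD livers). Pdk4, the kinase that shuts pyruvate dehydrogenase, had 19.3, 42.8 and 60.48 CPM in KD livers, against 5.81, 22.95 and 46.4 CPM in CD livers, a log2 fold change of 0.72 (SE 0.35). Ppargc1a, the coactivator PGC-1alpha, had 27.6, 31.6 and 46.03 CPM in KD livers, against 8.04, 18.9 and 34.3 CPM in CD livers, and its log2 fold change was 0.72 (SE 0.27), against 0.19 without the 4 CD livers. Hilpda, a lipid droplet protein, had 1.39, 2.75 and 3.74 CPM in KD livers, against 1.98, 3.71 and 42.99 CPM in CD livers, with a single-digit level in every KD liver. Cyp4a14, a fatty acid omega-hydroxylase and a sensitive PPAR-alpha target, spanned 11.1, 291 and 384 CPM in KD livers, against 0.727, 66.8 and 614 CPM in CD livers. KD replicate 13 was far below the other KD livers for it, at 11.1 CPM against 111 to 384.

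Fgf21, a hormone that the liver secretes in fasting, was 1 of the 17 members with a log2 fold change above 1. It had 0.945, 4.60 and 28.7 CPM in KD livers, against 0.0807, 2.57 and 4.87 CPM in CD livers, a log2 fold change of 2.08 (SE 0.75), an interval of 0.48 to 3.68 and an adjusted p of 0.295. KD replicates 9, 10 and 11 had 25.2, 28.7 and 10.2 CPM, above every CD liver, and the other 5 KD livers had 0.945 to 4.74 CPM, within the CD range. The log2 fold change was 1.46 without the 4 CD livers.

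Fat synthesis genes had a median log2 fold change of 0.45, above 0 in 19 of 24, and of -0.09, above 0 in 9, without the 4 CD livers. Without the 6 livers high in Gm10800 it was -0.03, above 0 in 11. Their SD was larger in CD livers for all 24. Fasn, fatty acid synthase, had 1522, 2799 and 5734 CPM in KD livers, against 111, 1721 and 7769 CPM in CD livers, a log2 fold change of 0.64 (SE 0.64). Scd1, the main desaturase, had 9805, 12779.7 and 21327 CPM in KD livers, against 1220.5, 8722 and 17810.3 CPM in CD livers, a log2 fold change of 0.84 (SE 0.45). Acaca, which makes malonyl-CoA, had 412, 507 and 967 CPM in KD livers, against 102, 408 and 1177 CPM in CD livers. Srebf1, which encodes SREBP-1, had 372, 614 and 850.4 CPM in KD livers, against 109, 418 and 1069 CPM in CD livers. For these 4 genes the highest CD liver was replicate 2 and the lowest was replicate 3. Elovl5, an elongase of polyunsaturated fatty acids, had 624, 773 and 1629 CPM in KD livers, against 149.5, 543 and 1100.0 CPM in CD livers, a log2 fold change of 0.82 (SE 0.38). G6pdx, the NADPH-forming enzyme of the pentose phosphate pathway, had 21.2, 29.7 and 88.3 CPM in KD livers, against 14.6, 62.8 and 196 CPM in CD livers, a log2 fold change of -1.23 (SE 0.52) in all livers and 0.56 without the 4 CD livers.

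Cholesterol synthesis and uptake had the highest median of the 29 lists, 0.52, with 28 of 31 tested genes above 0. It was also 1 of the 3 lists whose median stayed above 0 without the 4 CD livers, at 0.06 with 18 of 31 above 0, and without the 6 livers high in Gm10800 it was 0.40. Hmgcs1, the cytosolic synthase of the pathway, had 139, 180.2 and 378 CPM in KD livers, against 36.99, 144 and 238 CPM in CD livers, a log2 fold change of 0.76 (SE 0.34) and an adjusted p of 0.313. Lss, which closes the sterol rings, had 56.6, 88.3 and 199 CPM in KD livers, against 18.7, 64.01 and 142 CPM in CD livers, a log2 fold change of 0.83 (SE 0.36). Without the 4 CD livers, Hmgcs1 was at 0.38 and Lss at 0.37 on that scale. Among KD livers Lss and Hmgcs1 were highest in replicates 13, 14 and 16. These 3 had 170.3 to 199 CPM of Lss and the other 5 had 56.6 to 93.8 CPM. CD replicate 2 was the highest CD liver for Lss and Hmgcs1. Sqle, squalene epoxidase, had 58.7, 86.98 and 247 CPM in KD livers, against 34.9, 72.2 and 202 CPM in CD livers. Sc5d, a late desaturase, had 603, 955 and 1353 CPM in KD livers, against 70.4, 609 and 1264 CPM in CD livers, a log2 fold change of 0.71 (SE 0.48), against -0.03 without the 4 CD livers.

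SREBP-2 acts through sterol response elements, so the list's promoters were searched for the motif TCACNCCAC, with any base at N, on both strands of the RefSeq promoter window, 250 bases before to 50 after the start site (GRCm38.p6). The motif was found in 1 of the 22 promoters of the list that matched, that of Hmgcs1, and in 1.24% of all 32851 promoters. The stretch, at chr13:119690204-119690233 on the plus strand, upstream of the Hmgcs1 start site, is shown with the motif in capitals because Hmgcs1 is the list's member with a match.
Hmgcs1: cgtcaccgtcTCACCCCACttcccaggtcc
The PPAR-type direct repeat, AGGTCA and AGGTCA with any 1 base between, was found in 0.0396% of all promoters and in none of those matched from the fatty acid oxidation, ketone body and PPAR-alpha lists. A match is a run of letters in the reference and not a measured site, and the letters searched are only 1 spelling of each motif.

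Genes of sterol export and LXR targets were centred near 0, with a median of -0.11. In the lower direction 4 of 15 had an unadjusted p under 0.05, against 8.47% of all genes. Above 0 were 7 of 15, and 4 of 15 without the 4 CD livers, where the median was -0.08. Abca1, the exporter of cholesterol to HDL, had 699.8, 782 and 1134 CPM in KD livers, against 740.4, 926 and 1382 CPM in CD livers. For Abcg1, a sterol exporter strong in macrophages, the log2 fold change was -1.40 (SE 0.59), and for Soat1, which esterifies cholesterol, it was -1.44 (SE 0.62). They were 0.74 and 0.84 without the 4 CD livers, where Kupffer cell genes were highest.

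Triglyceride and phospholipid genes had a median of 0.25, with 21 of 26 above 0, and of -0.25 with 2 above 0 without the 4 CD livers. Gpam, the first step of triglyceride synthesis, had 319, 549 and 987 CPM in KD livers, against 65.4, 394 and 1155 CPM in CD livers. Lpin2, a phosphatidate phosphatase, had 270.4, 508 and 669 CPM in KD livers, against 208, 297 and 679.8 CPM in CD livers, a log2 fold change of 0.54 (SE 0.25). Pnpla2, the lipase ATGL, had 50.1, 59.8 and 78.8 CPM in KD livers, against 57.8, 70.2 and 92.2 CPM in CD livers, a log2 fold change of -0.27 (SE 0.11). Both had an unadjusted p under 0.05 and overlapped between diets.

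Bile acid genes had a median of 0.27, with 20 of 25 above 0, and of -0.33 with 2 above 0 without the 4 CD livers. Cyp7a1, the rate-limiting enzyme of bile acid synthesis, had 56.1, 122 and 226 CPM in KD livers, against 14.53, 116 and 402 CPM in CD livers. Cyp8b1, which sets the share of cholic acid, had 26.8, 203 and 685 CPM in KD livers, against 7.02, 185 and 532 CPM in CD livers. KD replicates 9 and 10 had the lowest KD values of both, 63.2 and 56.1 CPM of Cyp7a1 and 30.8 and 26.8 CPM of Cyp8b1. Abcb11, the bile salt export pump, had 533, 775 and 876 CPM in KD livers, against 50.7, 521 and 968 CPM in CD livers, with all KD livers above 291 CPM, the highest value of CD replicates 3, 5, 6 and 7. Abcc3, which returns conjugates to the blood, was called lower by DESeq2 (adjusted p = 0.033) and not by edgeR (adjusted p = 0.291). It had 230.5, 311 and 363 CPM in KD livers, against 308, 412 and 591 CPM in CD livers, a log2 fold change of -0.49 (SE 0.14) in all livers and -0.30 without the 4 CD livers. Slc51a, a subunit of the basolateral bile acid exporter, was scarce, at 0.735, 1.52 and 3.36 CPM in KD livers, against 0.666, 0.953 and 1.63 CPM in CD livers, a log2 fold change of 0.73 (SE 0.27).

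Glucose metabolism held both directions. In the glycolysis list 16 of 32 were above 0, with a median of 0.00. In the lower direction 8 of 32 had an unadjusted p under 0.05, against 8.47% of all genes. Leaving out the 4 CD livers left 11 of 32 above 0, with a median of -0.17, and without the 6 livers high in Gm10800 7 of 32, with a median of -0.37. Pklr, the liver pyruvate kinase, had 111, 318 and 673 CPM in KD livers, against 16.7, 198 and 618 CPM in CD livers. Hk2 and Pkm are the hexokinase and pyruvate kinase of many other cells. Hk2 had 5.93, 9.996 and 37.9 CPM in KD livers, against 5.47, 56.8 and 202 CPM in CD livers, a log2 fold change of -2.33 (SE 0.76). Pkm had 20.2, 31.1 and 102 CPM in KD livers, against 17.8, 115 and 600.4 CPM in CD livers, a log2 fold change of -2.24 (SE 0.73). CD replicates 3, 5, 6 and 7 had 101 to 202 CPM of Hk2 and the other CD livers 5.47 to 12.45 CPM, and without these 4 livers the log2 fold changes were 0.85 and 0.81. Ldhb, the heart-type lactate dehydrogenase subunit, had 1.80, 2.89 and 5.36 CPM in KD livers, against 0.857, 1.65 and 2.88 CPM in CD livers, a log2 fold change of 0.93 (SE 0.29), against 0.49 without them.

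**Figure D4:**
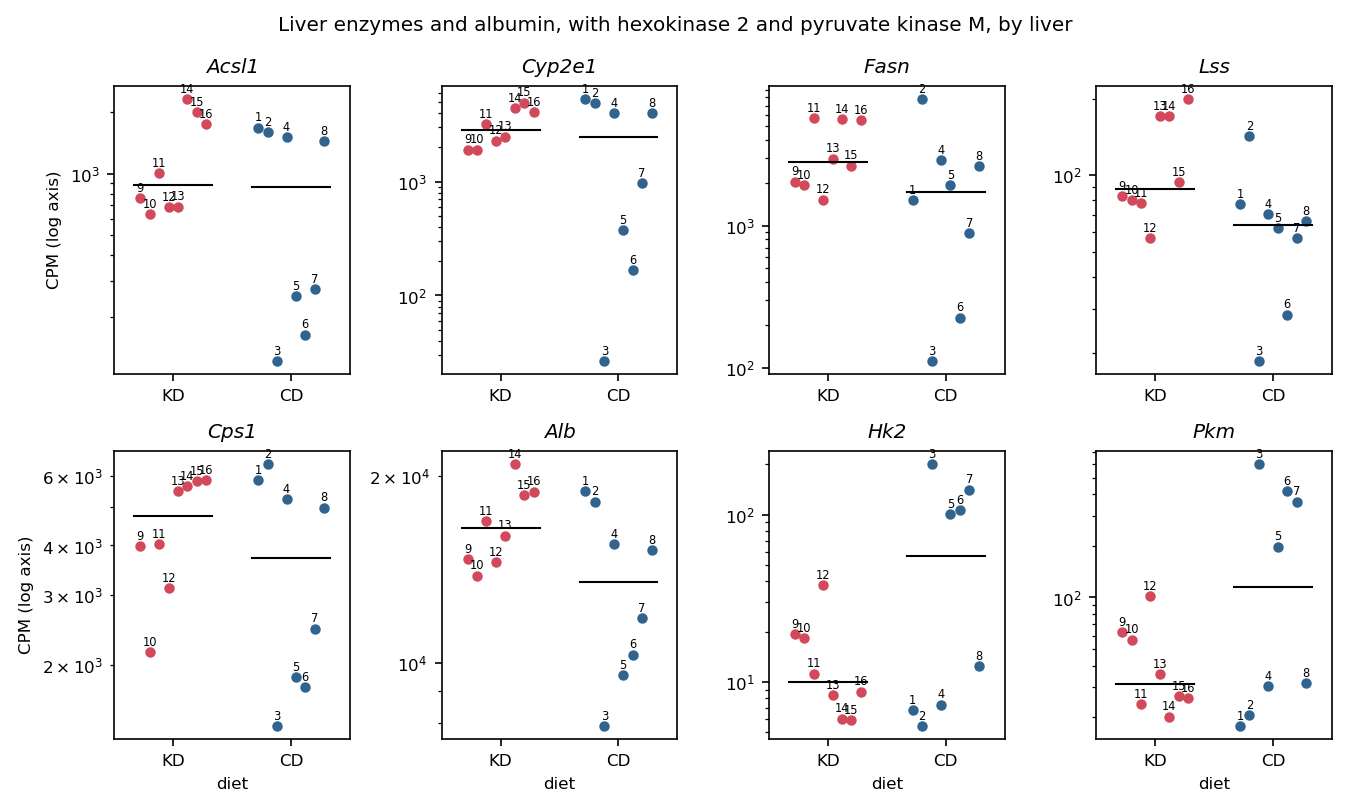
CPM on a log axis in each KD liver (left) and each CD liver (right), with the replicate number at each point and a bar at the median, for 6 hepatocyte genes, Hk2 and Pkm. CD replicates 3, 5, 6 and 7 are the lowest CD livers for Acsl1, Cyp2e1, Cps1 and Alb and the highest for Hk2 and Pkm, and every KD liver lies above these 4 for Acsl1, Cyp2e1 and Alb.

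Gluconeogenesis and glycogen genes had a median of 0.21, with 19 of 23 above 0, and of -0.26 with 4 above 0 without the 4 CD livers. Pck1, the committing enzyme of gluconeogenesis, had 443, 1178 and 2514 CPM in KD livers, against 550.0, 1001 and 1682 CPM in CD livers. G6pc, which releases free glucose, had 169, 369.9 and 551 CPM in KD livers, against 51.3, 280.0 and 716 CPM in CD livers. Ppp1r3g, a glycogen-targeting subunit of protein phosphatase 1, was scarce and higher in KD livers, with 0.285, 1.97 and 5.71 CPM in KD livers, against 0, 0.362 and 1.63 CPM in CD livers, and 2.05 (SE 0.66) on the log2 scale (adjusted p = 0.291). It was 1.11 without the 4 CD livers, and KD replicate 12 had 0.285 CPM, inside the CD range.

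Citric acid cycle genes had a median of 0.18, with 18 of 22 above 0, and subunits of the respiratory chain 0.17, with 73 of 77 above 0. With the 4 CD livers left out these were -0.27 with 1 above 0 and -0.28 with 2 above 0. Atp5b, the catalytic subunit of ATP synthase, had 397, 555 and 685 CPM in KD livers, against 251, 498 and 715 CPM in CD livers. Idh2, the mitochondrial NADP-dependent isocitrate dehydrogenase, had 77.50, 97.1 and 149 CPM in KD livers, against 52.6, 94.00 and 104 CPM in CD livers.

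Urea cycle and amino acid breakdown genes leaned the same way, with 66 of 69 tested genes above 0 and a median of 0.25. With the 4 CD livers left out, 7 of 69 were above 0 and the median was -0.38. Their median SD was 0.44 in KD livers and 1.06 in CD livers. Cps1, the first enzyme of the urea cycle, had 2147, 4754 and 5849.6 CPM in KD livers, against 1398, 3726 and 6431 CPM in CD livers. Ass1, argininosuccinate synthase, had 614, 1479 and 1845 CPM in KD livers, against 371, 1055 and 1717 CPM in CD livers. Tat, which begins tyrosine breakdown, had 349.5, 1142 and 1861 CPM in KD livers, against 314, 848 and 1586 CPM in CD livers. KD replicate 10 had the lowest Cps1 of the KD livers. Asns, asparagine synthetase, had 0.665, 4.28 and 10.2 CPM in KD livers, against 2.67, 9.73 and 13.6 CPM in CD livers, a log2 fold change of -0.80 (SE 0.47). The amino acid carriers were mixed. Of these, 14 of 22 were above 0 with a median of 0.12, which was 0.10 without the 4 CD livers. Slc1a1, a glutamate carrier, had 0.735, 1.58 and 3.47 CPM in KD livers, against 0.148, 0.669 and 1.26 CPM in CD livers, a log2 fold change of 1.40 (SE 0.42), and kept 1.11 without them. Slc7a8 and Slc3a2 are partners in a neutral amino acid exchanger. Slc7a8 was at -2.12 (SE 0.81) on the log2 fold change scale and Slc3a2 at -0.88 (SE 0.30), against 0.79 and 0.07 without them. Slc38a3, the glutamine carrier of hepatocytes, had 545, 1014 and 1553 CPM in KD livers, against 296, 807 and 1649 CPM in CD livers.

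Cytochrome P450 genes and their partners had a median of 0.27, with 41 of 46 above 0, and the widest CD spread of the metabolic lists (median SD 0.67 in KD livers and 1.44 in CD livers). In the fit without the 4 CD livers 15 of 46 were above 0, with a median of -0.38. Cyp3a11, a broad drug-oxidizing P450, had 245, 1239 and 2075 CPM in KD livers, against 46.8, 850.4 and 1689 CPM in CD livers, and KD replicate 13 was the lowest KD liver. Cyp1a2, a P450 of the pericentral zone, had 224, 311 and 479 CPM in KD livers, against 2.70, 320.1 and 723 CPM in CD livers. Of 20 pericentral genes tested, 15 were above 0, with an SD of 0.42 in KD livers and 1.68 in CD livers, and of 20 periportal genes 17 were above 0, with an SD of 0.57 in KD livers and 0.81 in CD livers. Only 2 pericentral and 6 periportal genes were above 0 without the 4 CD livers. The spread of CD livers was wider in the pericentral list, and the difference between the zones was not tested.

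Cyp2b9 and Cyp2b13, P450s that mouse livers express mainly in females, were high in some KD livers. Cyp2b9 had 2.63, 136 and 365 CPM in KD livers, against 2.28, 7.47 and 136 CPM in CD livers, a log2 fold change of 2.38 (SE 1.04). Cyp2b13 had 0.210, 2.86 and 23.3 CPM in KD livers, against 0.0994, 0.217 and 3.81 CPM in CD livers, a log2 fold change of 2.98 (SE 0.91) and an interval of 1.04 to 4.91. KD replicates 9, 10, 12 and 14 had 365, 265, 253 and 139 CPM of Cyp2b9, above every CD liver, while KD replicates 11 and 13 had 3.36 and 2.63 CPM. CD replicate 1 had 136 CPM and the other CD livers at most 42.7. Cyp2a4, another such gene, named after its values were seen, had 252 and 193 CPM in KD replicates 9 and 10, 22.1 CPM in KD replicate 12 and at most 3.01 CPM in the other KD livers, against 46.7 and 54.3 CPM in CD replicates 5 and 7 and at most 3.88 CPM in the other CD livers. Each of these has near-identical copies, so the split of reads between copies is uncertain. Without the 4 CD livers the log2 fold changes were 2.03 for Cyp2b9 and 2.76 for Cyp2b13. Cyp26a1, which degrades retinoic acid, had 16.8, 25.9 and 73.52 CPM in KD livers, against 2.77, 11.6 and 31.8 CPM in CD livers, a log2 fold change of 1.13 (SE 0.50), and its highest values again in KD replicates 9 and 10.

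Major urinary proteins are pheromone carriers that male livers secrete under pulsed growth hormone, and with other male-pattern genes they formed the most variable list. Its level (mean log2 CPM of 26 tested members, minus the mean of all livers) ran from -1.74 to 2.66 in KD livers, against -5.24 to 2.58 in CD livers. KD replicates 9, 10 and 12 were at -1.74, -1.59 and -0.65, and CD replicates 3, 5, 6 and 7 were lower still, at -5.24 to -2.27. The median log2 fold change was -0.08, with 10 of 26 above 0. It was -0.97 without the 4 CD livers and -1.38 without the 6 livers high in Gm10800, which leaves only 3 KD livers (9, 12 and 13), with none of the 26 above 0 in either fit. limma with sample quality weights put it on the other side of 0, at 0.80, and with 1 liver left out in turn it was -0.39 to 0.14. Mup20, also known as darcin, had 811, 1080.0 and 2280.1 CPM in KD livers, against 4.95, 1305 and 2465 CPM in CD livers, and Mup3 had 333, 1949.5 and 3489 CPM in KD livers, against 7.52, 1315 and 3166 CPM in CD livers. Reads of the Mup cluster cannot be assigned to single copies with certainty.

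Conjugation and antioxidant genes had a median of 0.28, with 44 of 60 above 0, and of -0.33 with 13 above 0 without the 4 CD livers. Gsta3, an alpha-class glutathione transferase, had 1008, 1181 and 1653 CPM in KD livers, against 29.54, 1025 and 1813 CPM in CD livers. Mgst1, a microsomal one, had 929.6, 1411 and 1707 CPM in KD livers, against 260.3, 1101 and 1870.2 CPM in CD livers. Gsr, glutathione reductase, had 90.01, 102 and 128 CPM in KD livers, against 97.4, 126 and 268 CPM in CD livers, a log2 fold change of -0.45 (SE 0.17). Hmox1, which breaks down heme and is abundant in macrophages, had 30.7, 64.4 and 246 CPM in KD livers, against 29.4, 209 and 659.8 CPM in CD livers, a log2 fold change of -1.55 (SE 0.65), against 0.64 without the 4 CD livers. Fmo4, a flavin monooxygenase, had 9.21, 16.6 and 20.1 CPM in KD livers, against 5.41, 9.03 and 21.6 CPM in CD livers, a log2 fold change of 0.62 (SE 0.26).

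Among secreted plasma proteins, carriers, clotting proteins and serpins had a median SD in CD livers below the 0.83 of all members, and apolipoproteins, complement and acute phase proteins one above it. Carrier proteins had a median SD of 0.41 in KD livers and 0.68 in CD livers, clotting proteins 0.42 in KD livers and 0.71 in CD livers, serpins 0.55 in KD livers and 0.72 in CD livers and apolipoproteins 0.42 in KD livers and 0.87 in CD livers. For carriers the SD was larger in CD livers for 11 of 20 genes. Alb had a log2 fold change of 0.32 (SE 0.26) with an interval of -0.23 to 0.87. Apob, the structural protein of VLDL, had 11419.9, 16072 and 18915 CPM in KD livers, against 5185, 12973 and 18688 CPM in CD livers, a log2 fold change of 0.33 (SE 0.33). Apoe, a ligand for remnant uptake, had 2359, 3625 and 4286 CPM in KD livers, against 1343, 3201 and 4279.9 CPM in CD livers. Of 25 genes of the apolipoprotein list 21 were above 0, with a median of 0.21, and none had an unadjusted p under 0.05. Leaving out the 4 CD livers left 2 of 25 above 0, with a median of -0.29. Serpina7, the thyroxine-binding globulin, had 41.95, 149 and 194 CPM in KD livers, against 13.9, 62.4 and 102 CPM in CD livers, a log2 fold change of 1.12 (SE 0.44), and KD replicates 9 to 13 were above every CD liver. Selenop, the selenium carrier, had 2804, 3637 and 4363 CPM in KD livers, against 2237, 3165 and 3986 CPM in CD livers. Ahsg, fetuin-A, had 1853, 2676 and 3578 CPM in KD livers, against 2033, 2678 and 3201 CPM in CD livers.

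Clotting and fibrinolysis genes had a median of 0.27, with 29 of 31 above 0, and of -0.23 with 10 above 0 without the 4 CD livers. Fga, a chain of fibrinogen, had 2093, 3329 and 6876 CPM in KD livers, against 1995, 3323 and 3866 CPM in CD livers. Fgb, another chain, had 1808, 2752 and 5535 CPM in KD livers, against 1651, 2658 and 3142 CPM in CD livers, and KD replicate 13 was the highest liver for both. F8, clotting factor VIII, which endothelial cells make, had 60.3, 73.6 and 106 CPM in KD livers, against 29.1, 65.99 and 78.7 CPM in CD livers, a log2 fold change of 0.35 (SE 0.19).

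Complement and pattern recognition genes had a median of 0.12, with 23 of 33 above 0. In the lower direction 5 of 33 had an unadjusted p under 0.05, against 8.47% of all genes. The list's median SD was 0.49 in KD livers and 0.87 in CD livers. In the fit without the 4 CD livers 7 were above 0 and the median was -0.23. C3, the central complement protein, had 5447, 7119 and 14001 CPM in KD livers, against 5507, 7433 and 8295 CPM in CD livers. C4b, a form of C4, had 1068, 1994 and 4072 CPM in KD livers, against 1582, 2000.2 and 2624 CPM in CD livers. C1qa, a chain of C1q that macrophages make, had 29.7, 55.1 and 261 CPM in KD livers, against 25.6, 369 and 804 CPM in CD livers, a log2 fold change of -1.999 (SE 0.74), against 0.59 without the 4 CD livers. Fcna, a ficolin, had 9.30, 18.4 and 105 CPM in KD livers, against 19.4, 88.01 and 219 CPM in CD livers, a log2 fold change of -1.77 (SE 0.62), against -0.0036 without them.

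Acute phase genes were spread widely in both diets, with a median SD of 0.81 in KD livers and 0.96 in CD livers and a median log2 fold change of 0.0032, with 18 of 33 above 0 (22 of 33 and a median of 0.08 without the 4 CD livers). The SD was larger in CD livers for 14 of 33 genes, all CD livers lay within the KD range for 13, and the SD of the list's level was 0.73 in KD livers and 0.47 in CD livers. Saa1, a serum amyloid A protein of the acute phase, had 5.36, 10.05 and 659.9 CPM in KD livers, against 9.53, 31.02 and 188 CPM in CD livers. Saa2, its close relative, had 3.74, 9.01 and 875 CPM in KD livers, against 4.76, 21.1 and 209.8 CPM in CD livers. KD replicate 13 had 659.9 CPM of Saa1 and KD replicate 12 74.00, whereas the other 6 KD livers had 5.36 to 20.96 CPM. Among CD livers replicate 7 was highest, at 188 CPM, and the others had 9.53 to 49.8 CPM. Itih4, an inter-alpha-trypsin inhibitor heavy chain, had 1246, 1981 and 4794 CPM in KD livers, against 995, 1879.9 and 2502 CPM in CD livers. Hamp, the iron hormone hepcidin, had 72.9, 544 and 686 CPM in KD livers, against 15.9, 324 and 732 CPM in CD livers. Saa1 and Saa2 are near-identical, so reads of either may be counted for the other.

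Genes for hormones, growth factors and binding proteins had a median of 0.11, with 28 of 39 above 0, and of -0.30 with 12 above 0 without the 4 CD livers. Lepr, the leptin receptor, whose short forms the liver also sheds into plasma, was the only one of the 921 metabolic and secretory members called higher by DESeq2 (adjusted p = 0.0475), with an adjusted p of 0.291 in edgeR. It had 34.50, 55.4 and 94.4 CPM in KD livers, against 14.9, 27.1 and 64.6 CPM in CD livers, a log2 fold change of 1.06 (SE 0.27) and an interval of 0.49 to 1.64. CD replicate 3 had 64.6 CPM and the other 7 CD livers 14.9 to 31.7 CPM, below every KD liver. Without the 4 CD livers the log2 fold change was 1.28. Fst, follistatin, which binds activins, had 8.58, 16.4 and 42.7 CPM in KD livers, against 4.51, 10.8 and 13.3 CPM in CD livers, a log2 fold change of 0.96 (SE 0.33), against 0.87 without them. Igf1, the main growth hormone effector of the liver, had 461, 942 and 1184 CPM in KD livers, against 479, 856 and 1309 CPM in CD livers. Igfbp1, a binding protein induced by fasting, had 21.7, 90.1 and 286 CPM in KD livers, against 5.58, 144 and 353 CPM in CD livers.

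**Figure D5:**
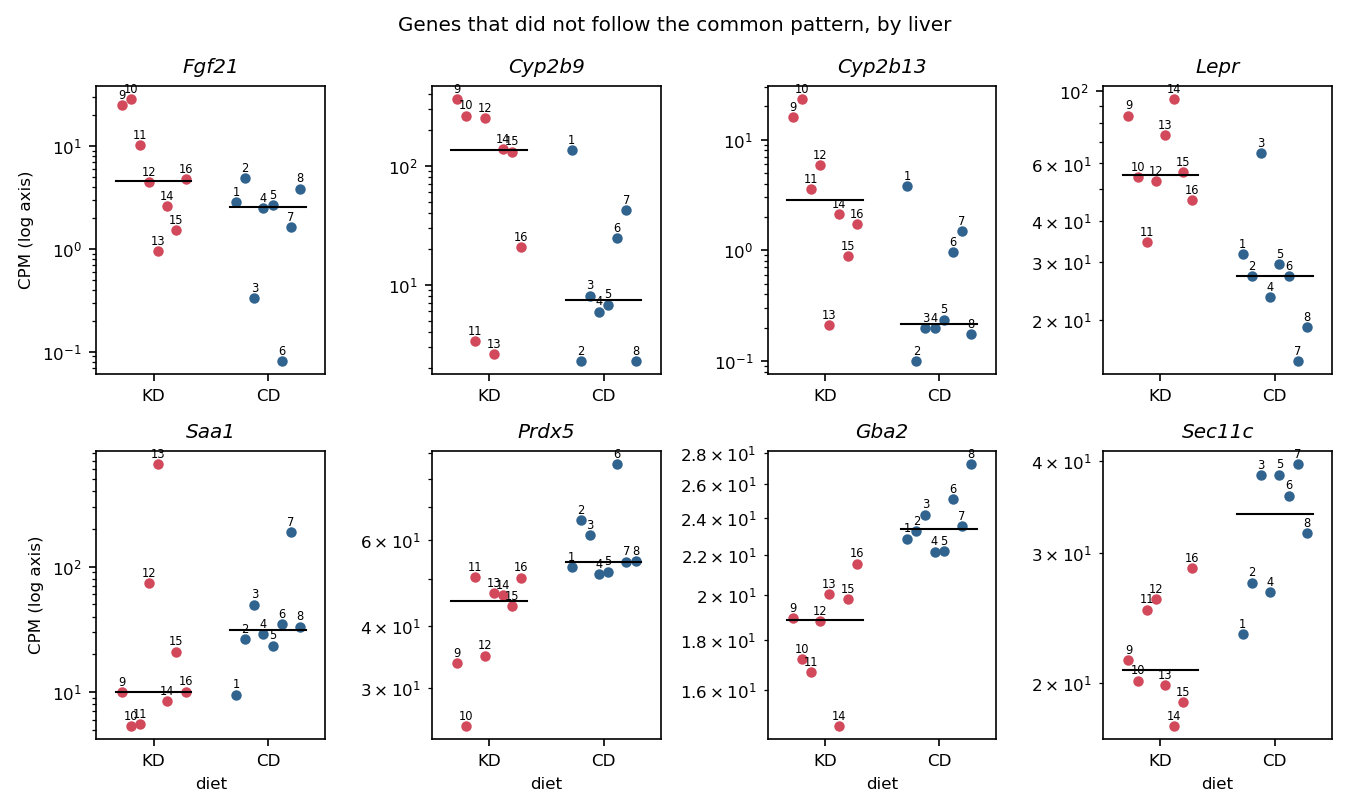
CPM on a log axis in each KD liver (left) and each CD liver (right), with replicate numbers and a bar at the median. Fgf21, Cyp2b9 and Cyp2b13 are highest in KD replicates 9 and 10, Saa1 is highest in KD replicate 13, Lepr overlaps only through CD replicate 3, and for Prdx5 and Gba2 the diets do not overlap.

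The machinery of secretion, from the translocon through folding to vesicle coats, had the smallest spread of the 29 lists. Of 94 genes tested 45 were above 0, with a median of -0.02 and an SD of 0.21 in KD livers and 0.31 in CD livers. None had an unadjusted p under 0.05 in the higher direction and 7 of the 94 had in the lower, against 7.04% and 8.47% of all genes. Of the 5867 genes with a mean log2 CPM above 5, 76 were higher and 842 lower at that p. The lower share of the list was thus no larger than that of other genes. Leaving out the 4 CD livers left 6 of the 94 above 0, with a median of -0.23. Hspa5, the chaperone BiP, had 397, 526 and 834 CPM in KD livers, against 379, 627 and 842 CPM in CD livers. Sec11c, a catalytic subunit of the signal peptidase, had 17.47, 20.8 and 28.6 CPM in KD livers, against 23.3, 33.9 and 39.6 CPM in CD livers, a log2 fold change of -0.56 (SE 0.14), and was called lower by DESeq2 (adjusted p = 0.0168), and by edgeR only with CD replicate 1 left out. Sec13, a coat protein of vesicles that leave the endoplasmic reticulum, had 37.52, 44.97 and 51.03 CPM in KD livers, against 43.95, 56.03 and 63.2 CPM in CD livers, a log2 fold change of -0.30 (SE 0.09), and was also called by DESeq2 (adjusted p = 0.0394). Tmed10, a cargo receptor between endoplasmic reticulum and Golgi, had 106, 132 and 149 CPM in KD livers, against 123, 167 and 237 CPM in CD livers, a log2 fold change of -0.42 (SE 0.13). With the 4 CD livers left out these were -0.31, -0.18 and -0.11.

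Liver transcription factors had a median of 0.16, with 35 of 52 above 0, and clock genes 0.05, with 14 of 25. Without the 4 CD livers these were -0.18 with 14 above 0 and -0.20 with 3. Hnf4a, which maintains hepatocyte identity, had 566, 789.6 and 1093 CPM in KD livers, against 233, 696 and 974 CPM in CD livers. Esrra, Rxrb and Rarb, nuclear receptors for energy and retinoid signals, were at -0.31 (SE 0.10), -0.29 (SE 0.09) and 0.60 (SE 0.20) on the log2 fold change scale. Per1, a clock repressor, had 41.6, 53.1 and 107 CPM in KD livers, against 38.6, 79.3 and 194 CPM in CD livers. Dbp, a clock output factor, had 2.73, 4.63 and 6.42 CPM in KD livers, against 3.95, 6.59 and 10.2 CPM in CD livers, a log2 fold change of -0.48 (SE 0.22). Iron and heme genes had a median of -0.04, with 13 of 30 above 0, and of -0.24 with 9 above 0 without the 4 CD livers. Fth1, ferritin heavy chain, had 693, 766 and 855 CPM in KD livers, against 752, 826 and 1259 CPM in CD livers. Hfe, a regulator of hepcidin, and Blvra, biliverdin reductase, were at -0.43 (SE 0.19) and -0.92 (SE 0.41).

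Outside the lists, the 10 genes with the lowest p among those higher in KD livers included Itgb4, a hemidesmosome integrin, with 1.90, 5.48 and 13.9 CPM in KD livers, against 1.29, 1.86 and 3.67 CPM in CD livers, a log2 fold change of 1.69 (SE 0.33), and 1.62 without the 4 CD livers. Krt7, a bile duct keratin, had 0.950, 4.01 and 14.7 CPM in KD livers, against 0.696, 1.11 and 2.99 CPM in CD livers. Of 10 bile duct markers tested, all 10 had a log2 fold change above 0. In the higher direction 7.04% of all genes had an unadjusted p under 0.05, against 4 of these 10. DESeq2 called 4 of them higher, Krt7 (adjusted p = 0.0168), Krt19 (0.0315), Muc1 (0.0321) and Epcam (0.0378), and it also called Vil1 higher (0.033), a villin counted here among muscle and gut markers. edgeR gave all 5 an adjusted p of 0.291, and DESeq2 called 0.478% of all genes higher. Of the 10 bile duct markers 8 were above 0 without the 4 CD livers. Their summed level, over 14 genes, was 186 to 566 CPM in KD livers, against 177 to 381 CPM in CD livers, with medians of 197 and 206 CPM. KD replicates 9, 10 and 13 had 566, 548 and 442 CPM, and the other KD livers had 186 to 206 CPM. Krt19, another bile duct keratin, named after its values were seen, had 7.79, 8.70 and 15.02 CPM in these livers, against at most 1.63 CPM in the other KD livers and at most 1.497 CPM in CD livers. The same livers had the highest Fgf21 (replicates 9 and 10) and Saa1 (replicate 13), and the part of bile duct cells in those values was not tested. Of the lower genes, Aatk, a kinase, had 5.88, 8.76 and 15.52 CPM in KD livers, against 15.1, 18.6 and 33.8 CPM in CD livers, a log2 fold change of -1.10 (SE 0.22), and Atg7, an autophagy enzyme, had 36.4, 47.1 and 57.7 CPM in KD livers, against 56.53, 59.3 and 76.6 CPM in CD livers, a log2 fold change of -0.39 (SE 0.09). Cela1, the gene with the lowest p, had 7.98, 11.7 and 13.1 CPM in KD livers, against 13.8, 21.2 and 29.47 CPM in CD livers, a log2 fold change of -0.93 (SE 0.15) and an interval of -1.26 to -0.61. Itgb4, Krt7, Aatk and Atg7 each had an adjusted p of 0.291 in edgeR.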

How the data were processed

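RNA was measured in 16 livers, 8 KD and 8 CD, grouped by the labels' diet and age. The deposited matrix held whole-number read counts per gene for 54446 gene IDs, which the authors made by trimming with Trimmomatic, aligning with STAR and estimating with RSEM against GRCm38, per the labels. Versions are not given in the sources used here. Gene names and positions came from GENCODE vM21 on the same build, and promoter sequence from RefSeq. The members and lists were chosen with earlier results of these data known.

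Counts were filtered with filterByExpr, scaled by TMM and tested with edgeR 4.0.16 (quasi-likelihood F test, R 4.3.3), KD against CD, with Benjamini-Hochberg adjustment and a threshold of 0.05. The SE was taken from the fold change and its F value. Log2 CPM used a prior count of 0.5. The scripts were tested on simulated data. Alternatives were DESeq2 1.42.0, limma 3.58.1 voom with quality weights, RLE and total-count scaling, no filter, a minimum of 10 counts in each liver, robust dispersion, a covariate of receptor gene counts, leaving out the 6 livers high in Gm10800 or each liver in turn, and all 44 libraries in 1 fit. Leaving out the 4 livers with under 2% mitochondrial counts was added after the data were seen. Nothing says whether libraries came from separate cages, so p-values measure the spread between these livers. The genes named were, per list, the 3 of smallest p and the 2 of highest mean CPM, fixed anchor genes, any list member that DESeq2 called, and the 10 of smallest p in each direction among all genes with a mean log2 CPM above 1. A few genes that this rule takes are not reported here. Genes without overlap between diets, Cyp2a4, Krt19 and a few members were named after their values were seen. Totals of 6879726 to 12682087 counts set the precision of each value. Summaries and figures used Python 3.11.15 with pandas 2.3.3, numpy 2.4.6 and matplotlib 3.10.9.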

Additional observations from a re-analysis of the deposited data

Results flagged for a closer look

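In 282 sets of 8 livers, covering the genes and lists given, the gap of the highest or lowest liver to its neighbour was set against Dixon's critical value for the group's range. Chance exceeds it in about 1 of 20 sets, and 17 sets exceeded it. KD replicate 13 stood apart for 7 of them. It was highest among KD livers for Itih4 (12.2 log2 CPM, next 11.2) and for the acute phase list (1.53 mean log2 deviation, next 0.32). It was lowest for Cyp3a11 (7.94 log2 CPM, next 9.73) and Cyp4a14 (3.48, next 6.80), and for the lists of peroxisomal and omega oxidation (-0.69 mean log2 deviation, next 0.23), other PPAR-alpha targets (-0.62, next 0.038) and cytochrome P450 enzymes (-0.49, next 0.33).

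KD replicate 12 stood apart for 5. It was highest among KD livers for G6pdx (6.47 log2 CPM, next 5.19), F8 (6.72, next 6.26), Fcna (6.71, next 4.501) and Blvra (4.54, next 3.60), and lowest for the list of clock genes (-0.27 mean log2 deviation, next 0.021).

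The remaining 5 were single genes. Riok3 was lowest in KD replicate 10 (6.29 log2 CPM, next 6.42). CD replicate 3 was highest among CD livers for Gsr (8.07, next 7.29) and Atg7 (6.26, next 5.93). CD replicate 6 was highest for Fth1 (10.3, next 9.88) and lowest for Rasgrp3 (3.83, next 4.27).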

How the results depend on the processing

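No paired analysis was possible because the KD and CD livers share no replicate number. DESeq2 called 86 genes higher and 91 lower, and the fit of all 44 libraries 4538 and 3980, against 0 and 0 in edgeR on the livers. With each liver left out in turn the counts were 0 to 103 higher and 0 to 14 lower, and 597 to 726 of the 921 list members were above 0. Limma, RLE, total counts, no filter, the stricter filter, robust dispersion and the covariate called none, nor did the fits without the 6 or the 4 livers. limma turned the sign of 5 list medians, among them major urinary proteins at 0.80. Without the livers high in Gm10800 the median of sterol export genes was 0.050 and of glycolysis -0.37. Without the 4 CD livers low in mitochondrial counts, 195 members were above 0 and 107 had the larger SD in CD livers. These list medians then moved by more than the pooled SD of the list's level: ketone body -0.19, glycolysis -0.17, citric acid cycle -0.27, clotting -0.23, hormones -0.30, iron -0.24, respiratory chain -0.28 and transcription factors -0.18. That SD includes the 4 CD livers and is wide where they differ most, so lists not named here were not shown to be more stable. Moves smaller than it were mitochondrial fatty acid oxidation from 0.21 to -0.38, bile acid genes from 0.27 to -0.33 and P450 genes from 0.27 to -0.38, among others. The cause was not tested.

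Of 59 genes given with a log2 fold change, 42 kept their sign under every alternative run, and 0 of the 59 reversed when 1 liver was left out. Fasn was -0.13 without the livers high in Gm10800 and -0.10 without the 4 CD livers. The others reversed without the 4 CD livers: Oxct1 0.9995, Ehhadh -0.0012, G6pdx 0.56, Sc5d -0.025, Soat1 0.84, Abcg1 0.74, Hk2 0.85, Pkm 0.81, Slc3a2 0.071, Slc7a8 0.79, Hmox1 0.64, Alb -0.027, Apob -0.23, C1qa 0.59, Blvra 0.40 and Hfe 0.067. The median of all genes was 0.82 without a filter and -0.03 to 0.12 under the other settings.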

Other observations

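Of 9 marker genes tested of mesothelial cells, which cover the liver surface, all 9 had a log2 fold change above 0, with a median of 1.21. At an unadjusted p under 0.05 in edgeR 7.04% of all genes were higher, against 6 of these 9, with no adjusted p under 0.05. Their summed level, over 11 genes, was 13.7 to 123 CPM in KD livers, against 9.91 to 50.9 CPM in CD livers, and KD replicate 10 was the highest liver. The 6 livers high in Gm10800, 5 KD and 1 CD, had the 6 highest sums, 47.6 to 123 CPM, and no other liver was above 44.4 CPM. Without these 6 livers, 7 mesothelial genes were tested and 6 were above 0, with a median of 0.69. The part of this library feature in the mesothelial values was not tested. Genes of B and plasma cells were above 0 in 8 of 9 tested, with a median of 0.65, which was 0.17 without the livers high in Gm10800. Their sums were 99.4 to 1294 CPM in KD livers, with KD replicate 16 highest, against 93.3 to 709 CPM in CD livers, with CD replicate 5 highest.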
